A study of Oryza sativa with 12 samples.

Results

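ZIP3 and ZIP4 are genes of the rice ZIP family of zinc transporters, read here from 1 probe set each, 2 of the 57258 probe sets tested on Affymetrix rice arrays. The array annotation assigns the first probe set to LOC4338051 on chromosome 5 and the second to LOC4344937 on chromosome 8. Both genes were picked on measured values, since they were chosen from earlier results of these data, so their levels and differences are given as a description with no p-value. The rule for finding their probe sets used only the annotation and no threshold. The name ZIP3 is not unique: the annotation also lists LOC4338051 as ZIP7 and ZIP7a, and gives the name ZIP3 to LOC4336971 on chromosome 4 as well. Here ZIP3 means the chromosome 5 gene, and nothing known of the chromosome 4 gene was carried over to it.

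The study used shoots of 2 rice genotypes, K83 and Jijing88, from hydroponic seedlings aged 7 days that had been transferred for 24 h either to alkali salts (50 mM) or to the control medium. The 4 groups were K83 with alkali, K83 control, Jijing88 with alkali and Jijing88 control, each with 3 arrays labelled as biological replicates, and each array held RNA from a pool of 10 shoots. All groups shared the hydroponic culture and the greenhouse, at 27 °C in a light period of 16 h and 23 °C in a dark period of 8 h. The labels give neither the salts' composition nor the pH nor a relation between the genotypes, and no group received a neutral salt, so alkalinity and salt cannot be told apart.

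ZIP proteins are membrane carriers that move zinc, and in some members iron or other divalent metals, into the cytoplasm. In plants they serve uptake from the soil, loading and unloading of the vessels and distribution among leaves, and transcripts of many ZIP genes, rice ZIP4 among them, rise when zinc is short. The related transporters IRT1 and IRT2 carry ferrous iron, and nicotianamine, made by NAS enzymes, chelates both metals inside the plant. None of the groups was labelled as short of zinc, and metal contents were not analysed here.

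Values are log2 signals as deposited, so that a difference of 1 is a doubling. Array medians lay between 5.12 and 5.18, and arrays of a group correlated at 0.9925 to 0.9972 (across probe sets, which are no independent replicates). Signals of different probe sets are not compared as levels, but those of marker genes are summed below, which gives brighter ones more weight. Of 5 shoot markers 4, with RBCS, the small subunit of Rubisco, among them, were above the median of all values in every array. Of 5 seed markers 1 was, GLUA2 (8.69 to 9.30), and of 3 root markers 1 was, the silicon channel gene Lsi1 (8.83 to 9.76), with the silicon exporter gene Lsi2 at 3.53 to 5.47. Jijing88 control replicate 3 had high iron gene signals, with IRT1 at 8.34 beside 6.61 and 6.45 in replicates 1 and 2.

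ZIP3 was higher in K83 than in Jijing88 in either medium and lower with alkali than without it in either genotype. In K83 its log2 signal was 9.58, 9.83 and 9.81 with alkali, against 10.18, 10.66 and 10.44 in control medium. In Jijing88 it was 6.95, 7.10 and 6.95 with alkali, against 7.82, 8.11 and 7.93 in control medium. The 4 groups thus formed 4 separate bands, K83 control highest, then K83 alkali, Jijing88 control and Jijing88 alkali, and no neighbouring groups overlapped. Group means were 9.74 ± 0.14 in K83 alkali, 10.43 ± 0.24 in K83 control, 7.0 ± 0.08 in Jijing88 alkali and 7.95 ± 0.14 in Jijing88 control arrays (SD, n = 3 each).

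ZIP4 had the same order between genotypes but not between media. In K83 its log2 signal was 9.39, 9.59 and 9.32 with alkali, against 9.25, 9.94 and 9.97 in control medium. In Jijing88 it was 8.00, 7.76 and 7.97 with alkali, against 7.50, 7.42 and 7.12 in control medium. The K83 groups overlapped, because K83 control replicate 1 lay below all 3 alkali arrays, whereas the Jijing88 alkali arrays all lay above the Jijing88 control arrays. Group means were 9.43 ± 0.14 in K83 alkali, 9.72 ± 0.41 in K83 control, 7.91 ± 0.13 in Jijing88 alkali and 7.35 ± 0.20 in Jijing88 control arrays (SD, n = 3 each). From high to low, the means ran from K83 control through K83 alkali, which do not differ beyond their spread, to Jijing88 alkali and Jijing88 control, which do not overlap.

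**Figure D1:**
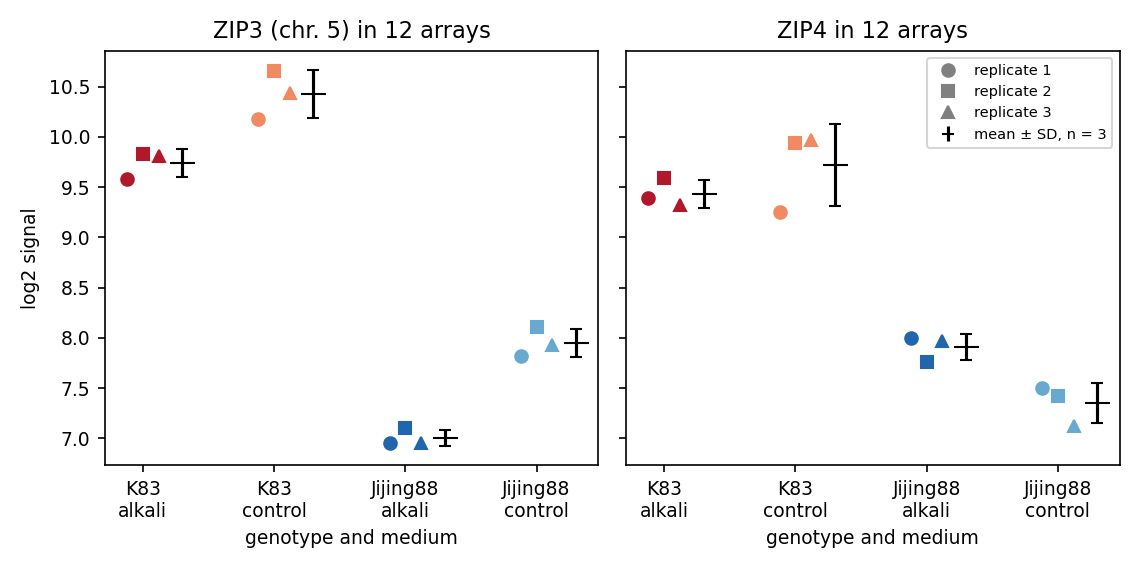
Log2 signal of ZIP3 on chromosome 5 (left) and ZIP4 (right) on the vertical axis in each of the 12 arrays, by genotype and medium. Symbols mark replicates 1 to 3 and bars the mean ± SD (n = 3). The lowest K83 array is at 9.58 for ZIP3 and 9.25 for ZIP4, above the highest Jijing88 array at 8.11 and 8.00.

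The genotype difference of ZIP3 was 2.74 under alkali (SE 0.12), or 6.70-fold, and 2.47 in control medium (SE 0.12), or 5.55-fold. That of ZIP4 was 1.52 under alkali (SE 0.17), or 2.87-fold, and 2.37 in control medium (SE 0.17), or 5.18-fold. Of all probe sets, 16.4% under alkali and 15.9% in control medium had K83 arrays that all lay above the Jijing88 arrays, as both genes did. All 6 K83 arrays lay above all 6 Jijing88 arrays for 3.92% of probe sets. Between the lowest K83 and the highest Jijing88 array the gap was 1.47 for ZIP3 and 1.25 for ZIP4. Ranked by K83 minus Jijing88 from the highest, ZIP3 stood at place 55 under alkali and 79 in control medium among 57258 probe sets, and ZIP4 at 215 and 84. These ranks restate the values by which the genes came to notice and support nothing further.

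The alkali difference of ZIP3 was -0.68 in K83 (SE 0.12), a 1.61-fold lower signal, and -0.95 in Jijing88 (SE 0.12), a 1.94-fold lower one. Alkali arrays below every control array were found for 16.6% of probe sets in K83 and 12.1% in Jijing88. Each alkali array lay below the mean of its genotype's control arrays, by -0.85, -0.59 and -0.61 in K83 replicates 1, 2 and 3 and by -1.0, -0.86 and -1.01 in those of Jijing88. The difference between the alkali effects, K83 minus Jijing88, was 0.27 (SE 0.18).

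For ZIP4 the alkali difference was -0.29 in K83 (SE 0.17) and 0.56 in Jijing88 (SE 0.17), a 1.48-fold higher signal. Alkali arrays above every control array were found for 10.2% of probe sets in Jijing88. Relative to the control mean, the K83 alkali replicates 1, 2 and 3 lay at -0.33, -0.13 and -0.40 and the Jijing88 ones at 0.65, 0.41 and 0.62. The K83 value rests on single control arrays: it was -0.52 without K83 control replicate 1, -0.18 without replicate 2 and -0.17 without replicate 3. The difference between the alkali effects was -0.85 (SE 0.24), so the genotypes stood closer together in ZIP4 under alkali than in control medium, while for ZIP3 they stood 2.74 apart under alkali and 2.47 in control medium.

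The other 8 measured ZIP family genes are no members but were listed with earlier results known, and they were tested in the limma fit, with calls at an adjusted p (Benjamini-Hochberg over all probe sets) under 0.05. None of the 8 was higher in K83 under alkali, and 1 was in control medium, ZIP5. Over the whole array, calls made up 7.05% (higher) and 7.25% (lower) under alkali, and 6.18% and 5.44% in control medium. ZIP5, whose product takes up zinc in rice, was at 8.39 ± 0.17 in K83 control and 7.94 ± 0.05 in Jijing88 control arrays (SD, n = 3; difference 0.46, SE 0.11, adjusted p = 0.0187 by limma), with 0.19 under alkali (adjusted p = 0.331). Its call was lost without Jijing88 control replicate 1 or 2 or K83 control replicate 2 or 3, with a highest adjusted p of 0.0811. The median of the 8 genes was -0.40 under alkali and -0.40 in control medium, beside 0.02 and 0.01 over all probe sets, whereas ZIP3 and ZIP4 lay between 1.52 and 2.74.

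Lower in K83 were the iron carriers and 2 further ZIP genes. IRT1 was lower by -1.94 under alkali (adjusted p = 0.00288) and by -1.48 in control medium (adjusted p = 0.0186, 0.0753 at the highest when an array was left out or only the groups compared were fitted). IRT2 was lower by -3.16 in control medium (adjusted p = 1.44e-05), with -0.71 under alkali (adjusted p = 0.155). In K83 control arrays IRT2 was at 4.15 ± 0.29 (SD, n = 3), below the array medians. ZIP2 was lower by -0.55 in control medium (adjusted p = 0.0222, 0.093 at the highest with an array left out), with -0.43 under alkali (adjusted p = 0.0635).

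The chromosome 4 gene that shares the name ZIP3 had signs opposite to its namesake for the alkali difference in each genotype and the genotype difference in each medium. It was called for alkali only in K83 and between genotypes only in control medium. Its log2 signal was 5.31, 6.48 and 6.13 in K83 alkali, against 4.39, 4.88 and 5.16 in K83 control arrays. In Jijing88 it was 6.24, 6.74 and 6.66 with alkali, against 5.33, 5.75 and 6.40 in control medium. It rose with alkali in K83 (1.16, SE 0.31, adjusted p = 0.04 by limma) and was lower in K83 control than in Jijing88 control arrays (-1.02, SE 0.31, adjusted p = 0.0478). The first call held in 12 and the second in 8 of 20 alternative fits, with adjusted p up to 0.162 and 0.189. Its alkali difference in Jijing88 was 0.72 (adjusted p = 0.197). Under alkali its means were 5.97 ± 0.60 in K83 and 6.55 ± 0.27 in Jijing88 arrays (SD, n = 3 each), with overlapping groups and no call.

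**Figure D2:**
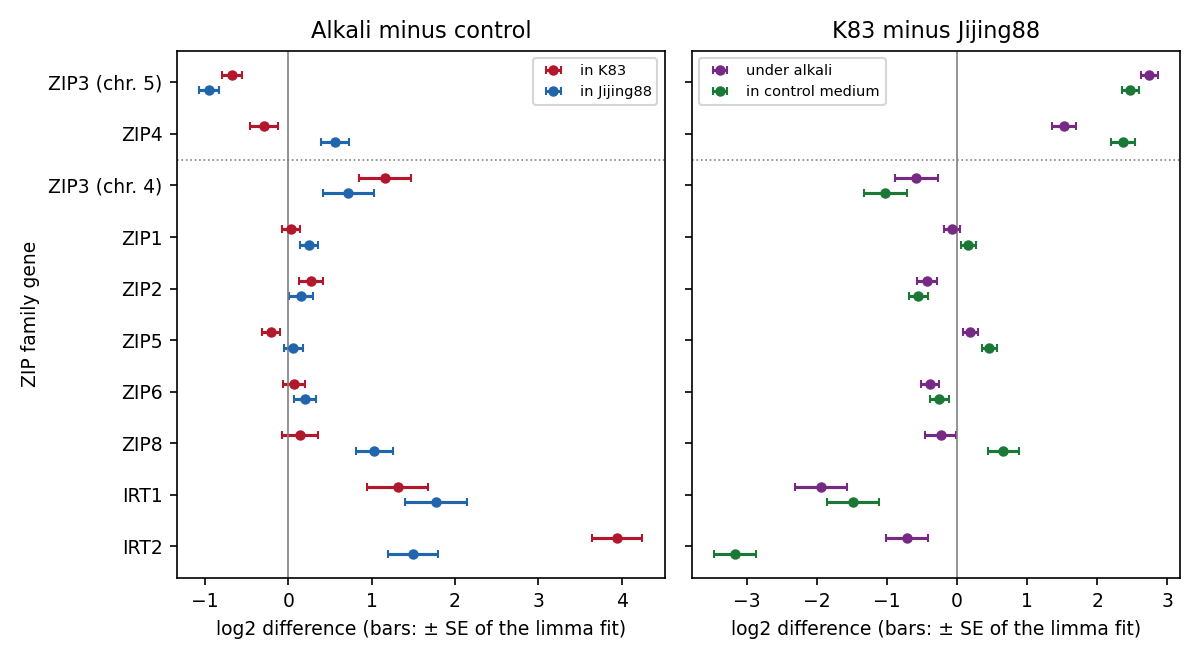
Log2 differences on the horizontal axis for the 10 measured ZIP family genes, alkali minus control on the left and K83 minus Jijing88 on the right, with bars of ± 1 SE of the fit. ZIP3 on chromosome 5 and ZIP4, above the dotted line, lie at 1.52 to 2.74 between genotypes, and the other 8 genes at -3.16 to 0.66.

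With alkali, none of the 8 other ZIP genes fell in either genotype. In Jijing88 3 rose, IRT1 (1.77, adjusted p = 0.00921), IRT2 (1.5, adjusted p = 0.00768) and the zinc transporter gene ZIP8 (1.03, adjusted p = 0.0101). In K83 2 rose, IRT2 (3.95, adjusted p = 9.17e-06) and the chromosome 4 ZIP3, while IRT1 was at 1.31 (adjusted p = 0.0537). The K83 control means of IRT2 and the chromosome 4 ZIP3, 4.15 and 4.81, lay below the array medians. Over the whole array, alkali calls made up 2.61% (higher) and 3.85% (lower) in K83, and 4.29% and 4.07% in Jijing88. ZIP8 was at 8.14, 8.19 and 8.29 in Jijing88 alkali, against 6.92, 6.89 and 7.74 in Jijing88 control replicates 1, 2 and 3. The third of these control arrays was the one with high iron genes, and for ZIP4 it was the lowest at 7.12. The call for ZIP8 was lost without Jijing88 control replicate 2 (adjusted p = 0.056), and that for IRT1 with only the Jijing88 arrays fitted (adjusted p = 0.0569). ZIP1, ZIP2, ZIP5 and ZIP6 were called in neither genotype, with alkali differences between -0.21 and 0.27. The median alkali difference of the 8 genes was 0.20 in K83 and 0.48 in Jijing88, beside -0.01 and -0.02 over all probe sets.

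Between genotypes the alkali effect differed for 1 of the 8, IRT2, by 2.45 (adjusted p = 0.0267), where calls over the whole array made up 0.267% (higher) and 0.362% (lower). That call was lost without Jijing88 alkali replicate 3, K83 control replicate 1 or 3, or K83 alkali replicate 1 or 2, with adjusted p up to 0.0696. For ZIP8 the difference was -0.89 (adjusted p = 0.217), but it was called without Jijing88 control replicate 3 (adjusted p = 0.041).

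The wider lists of metal genes held 58 genes besides ZIP3 and ZIP4. They comprise the 8 ZIP genes, 2 genes with names given to zinc regulators, 16 metal pumps and transporters, 28 genes of chelators and their carriers and 4 zinc enzymes. Under alkali 4 were higher and 20 lower in K83, beside 7.05% and 7.25% of all probe sets. In control medium 2 were higher and 19 lower, beside 6.18% and 5.44%. Their median was -0.29 and -0.18, beside 0.02 and 0.01 over all probe sets. No listed gene was called higher in K83 in both media, and 12 were called lower in both. The share of all probe sets called in both media was not computed, so these joint counts have no background beside them. The genes called higher in K83 were VIT1.2, Nramp5, Nramp6 and MT2A under alkali and ZIP5 and YSL7 in control medium.

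**Figure D3:**
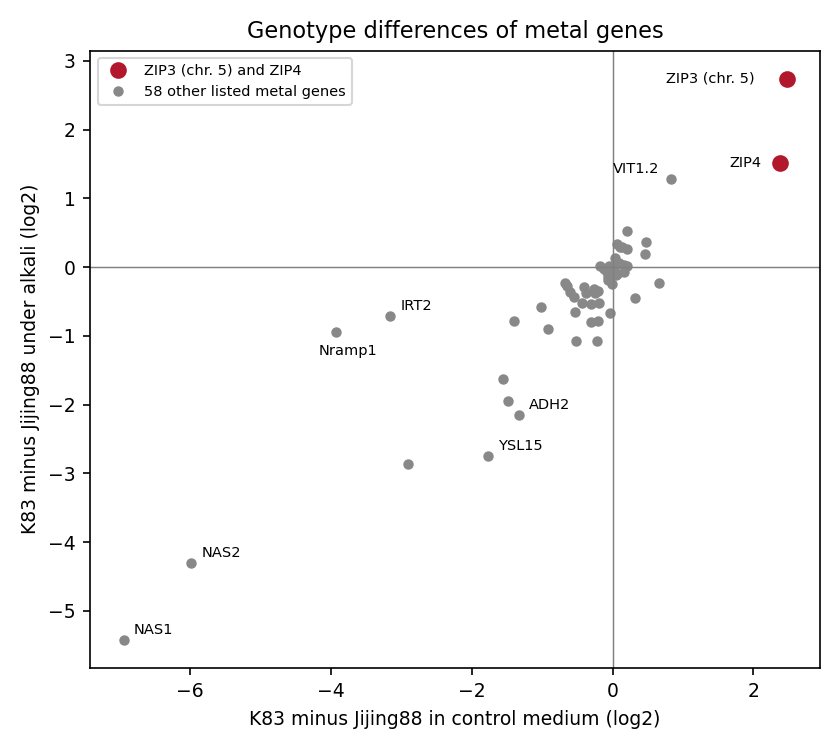
K83 minus Jijing88 log2 difference in control medium on the horizontal axis and under alkali on the vertical axis for ZIP3 and ZIP4 (red) and 58 other listed metal genes (grey), each axis from 6 arrays with none shared. ZIP3 (2.47, 2.74) and ZIP4 (2.37, 1.52) lie at the upper right, and NAS1 (-6.94, -5.42) and NAS2 (-5.98, -4.31) at the lower left.

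Among these genes the largest differences in either medium were those of NAS1 and NAS2, for nicotianamine synthases, and they were lower in K83. NAS1 was lower in K83 by -5.42 under alkali (adjusted p = 5.01e-05) and by -6.94 in control medium (adjusted p = 5.93e-06). NAS2 was lower by -4.31 (adjusted p = 0.000104) and -5.98 (adjusted p = 6.32e-06). MT1B, a metallothionein gene named after its values were seen, was lower by -2.86 (adjusted p = 2.74e-05) and -2.90 (adjusted p = 2.49e-05). YSL15, a carrier of iron chelates, was lower by -2.75 (adjusted p = 0.000398) and -1.77 (adjusted p = 0.00984). Among pumps and transporters, Nramp1 was lower in control medium by -3.93 (adjusted p = 2.5e-06), with -0.95 under alkali (adjusted p = 0.0613), and Nramp4 by -0.68 (adjusted p = 0.000252). Nramp4 was read from the brightest of its 5 probe sets, and the others gave -0.39, -0.62, -0.20 and -0.18 in control medium. Under alkali the copper pump gene HMA5 and the metal tolerance gene MTP7 were each lower by -1.07 (adjusted p = 0.00203 and 0.000791). The MTP7 group means were 4.64 to 5.71, and only that of Jijing88 alkali arrays lay above the array medians. VIT1.2, a vacuolar metal transporter, was higher by 1.28 under alkali (adjusted p = 0.0249, 0.0951 at the highest with an array left out).

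With alkali, 12 of the 58 genes rose and 2 fell in Jijing88, and 9 rose and 3 fell in K83, beside 4.29% and 4.07% of all probe sets in Jijing88 and 2.61% and 3.85% in K83. Their median was 0.15 in Jijing88 and 0.07 in K83. In Jijing88 the 14 calls became 5 without control replicate 2, 21 without control replicate 3 and 7 with only the Jijing88 arrays fitted. VIT1.2 fell in both genotypes, as the ZIP3 values did, by -1.68 in K83 (adjusted p = 0.0119) and by -2.13 in Jijing88 (adjusted p = 0.00198). Without K83 control replicate 2 its K83 call was lost (adjusted p = 0.063). Nramp1 rose in both, by 4.88 in K83 (adjusted p = 2e-06) and by 1.90 in Jijing88 (adjusted p = 0.00207). In K83 the further pumps and transporters named were Nramp4 (0.61, adjusted p = 0.0018) and Nramp6 (0.58, adjusted p = 0.000547), and in Jijing88 MTP7 (0.76, adjusted p = 0.0126, called in 17 of 20 alternative fits) and HMA5 (0.67, adjusted p = 0.0497, called in 9 of 20 alternative fits). Nramp6 was called higher in Jijing88 too, at 8.57 with alkali against 8.27 in control medium (means, n = 3 each). The other probe sets of Nramp4 gave 0.88, 0.54, 0.81 and 0.05 in K83. Among chelator genes YSL15 (1.5, adjusted p = 0.0327), NAAT1 for an enzyme of iron chelator synthesis (1.47, adjusted p = 0.042) and YSL16 (0.41, adjusted p = 0.0135) rose in Jijing88, called in 15, 10 and 18 of 20 alternative fits. YSL13 rose in both, by 1.45 in K83 (adjusted p = 0.000398) and by 0.83 in Jijing88 (adjusted p = 0.00968, 0.0512 without Jijing88 control replicate 2). The third nicotianamine synthase gene, NAS3, fell in K83 by -1.03 (adjusted p = 0.00235), while NAS1 and NAS2 rose there by 3.42 (adjusted p = 0.00462) and 3.14 (adjusted p = 0.00326) from K83 control means of 4.67 and 5.63, the first of them below the array medians. In Jijing88 NAS1 was at 13.5 with alkali against 11.6 ± 1.74 in control medium, and NAS2 at 13.08 against 11.61 ± 1.54 (SD, n = 3). Neither was called there, and no chelator gene was called for the difference of the effects.

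Of the names listed for zinc regulators, bZIP49 and bZIP50 were matched, and the annotation lists the first also as TGAL8 and the second also as BZIP60 and BZIP74, a name known for the response to misfolded proteins, so neither is taken here for a regulator of ZIP genes. bZIP50 was called in no contrast (differences -0.14 to 0.15). bZIP49 lay near background with group means of 4.01 to 4.4 and was lower in K83 by -0.38 in each medium (adjusted p = 0.0365 under alkali and 0.0462 in control medium), calls that were lost in 5 and 13 of 19 alternative fits.

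Some B-type cyclin genes from the list of meristem markers moved in the direction of ZIP3 in some of the contrasts, and none was called in all 4. Of the 5 markers, 3 such cyclin genes, which act at mitosis, were above the median of all values in every array, while the cyclin gene CYCB1-3 and the meristem gene OSH1 (3.40 to 4.82) were not and were called in no contrast. CYCB2-2 was at 9.77 in K83 alkali, 10.27 in K83 control, 8.78 in Jijing88 alkali and 9.39 in Jijing88 control arrays (means, n = 3 each), the order of ZIP3. It was higher in K83 under alkali (0.99, adjusted p = 0.000657) and in control medium (0.88, adjusted p = 0.00172), and lower with alkali in Jijing88 (-0.61, adjusted p = 0.0252), with -0.50 in K83 (adjusted p = 0.0725). CYCB1-1 and CYCB2-1 were also higher in K83 in both media, by 0.51 to 1.06, and fell with alkali in K83 (-0.47 and -0.67, adjusted p = 0.0303 and 0.012). In Jijing88 their alkali differences were -0.40 (adjusted p = 0.0546) and -0.37 (adjusted p = 0.132), with overlapping groups.

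The log2 of the summed signal of the 5 meristem markers was 10.95 to 11.17 in K83 alkali, 11.45 to 11.62 in K83 control, 9.96 to 10.29 in Jijing88 alkali and 10.38 to 10.83 in Jijing88 control arrays, with no overlap between groups. How often all groups separate among all probe sets was not computed, so this has no background beside it. That of the 5 shoot markers was 15.79 to 15.94, 15.90 to 15.93, 15.88 to 15.98 and 15.71 to 15.85 in the same order. That of the 3 root markers was 8.92 to 9.07, 9.10 to 9.40, 9.39 to 9.80 and 9.17 to 9.48, with only K83 alkali apart from all other groups. That of the 5 seed markers was 9.07 to 9.27, 9.06 to 9.17, 9.29 to 9.52 and 9.01 to 9.13, with only Jijing88 alkali apart. The root sum mostly restates Lsi1, which was lower in K83 under alkali (-0.59, adjusted p = 0.00525 by limma). Within the shoot sum, CAB2R and LHCP were higher with alkali in Jijing88 (0.49 and 0.48, adjusted p = 0.00455 and 0.00225 by limma). Under alkali they were lower in K83 (-0.59 and -0.47, adjusted p = 0.000645 and 0.00152), whereas RCA was higher (0.53, adjusted p = 0.00816). Such opposite changes can cancel in a sum. The meristem sum mostly restates CYCB1-1, CYCB2-1 and CYCB2-2, whose group means were 7.77 to 10.28. CYCB1-3 and OSH1, at 3.4 to 4.82, add little to it. OSH1 differed from ZIP3 in sign between genotypes in control medium (-0.64) and with alkali in K83 (0.58). It shared the sign of ZIP3 between genotypes under alkali (0.68) and with alkali in Jijing88 (-0.75), with overlapping groups and no call. Whether a different share of dividing cells has a part in the ZIP3 values was not tested, and in whole shoots fewer cells of a type and less RNA per cell cannot be told apart.

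Likeness to each gene was measured over the 12 arrays with Pearson's r against 2162 named genes above the median signal, as a description. The arrays lie in 2 genotype clusters, so a high r mostly reflects the genotype difference. Closest to ZIP3 were the D-type cyclin gene CYCD2-2 (r = 0.987), the A-type cyclin gene CYCA2-1 (0.985), METK3 for an S-adenosylmethionine synthetase (0.983), the kinesin genes KIN7L (0.982) and KIN10B (0.979), and AGM1 (0.979). CYCD2-2 differed between genotypes by 1.30 under alkali and 1.31 in control medium, and METK3 by 2.10 and 2.22. Their alkali differences were -0.30 in each genotype for CYCD2-2, called in neither, and -0.46 in K83 and -0.35 in Jijing88 for METK3, not called in Jijing88. CYCA2-1 and KIN7L were called in both genotypes. They fell by -0.60 and -0.44 in K83 (adjusted p = 0.00953 and 0.0152 by limma) and by -0.56 and -0.50 in Jijing88 (adjusted p = 0.0109 and 0.0055). Both were also called higher in K83, by 1.23 and 1.04 under alkali and 1.27 and 0.98 in control medium. KIN10B and AGM1 were called for alkali in neither genotype. Genes picked for their likeness follow ZIP3 by that choice. Most opposed were BURP16 (-0.987), OsCASPL1U2 (-0.986) and the phytosulfokine precursor gene PSK2 (-0.982).

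ZIP4 resembled a different set of genes, with no cyclin among the 6. They were RSZP21 for a splicing factor (r = 0.951), R40C1 (0.942), NIGT1, a nitrate-responsive transcriptional repressor gene (0.941), D-enzyme (0.939), the thioredoxin gene OsTrx14 (0.936) and the expansin gene EXPB2 (0.931). NIGT1, picked for this likeness, differed between genotypes by 1.0 under alkali and 1.80 in control medium, and its alkali difference was -0.07 in K83 and 0.73 in Jijing88, with no call for the difference of the effects (-0.79). The most opposed genes were HXK4 for a hexokinase (-0.958), the lignin gene CAD (-0.955) and the kinase gene CPK8 (-0.955). Between ZIP3 and ZIP4 themselves r was 0.885, place 115 in the list of ZIP3 and 32 in that of ZIP4.

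**Figure D4:**
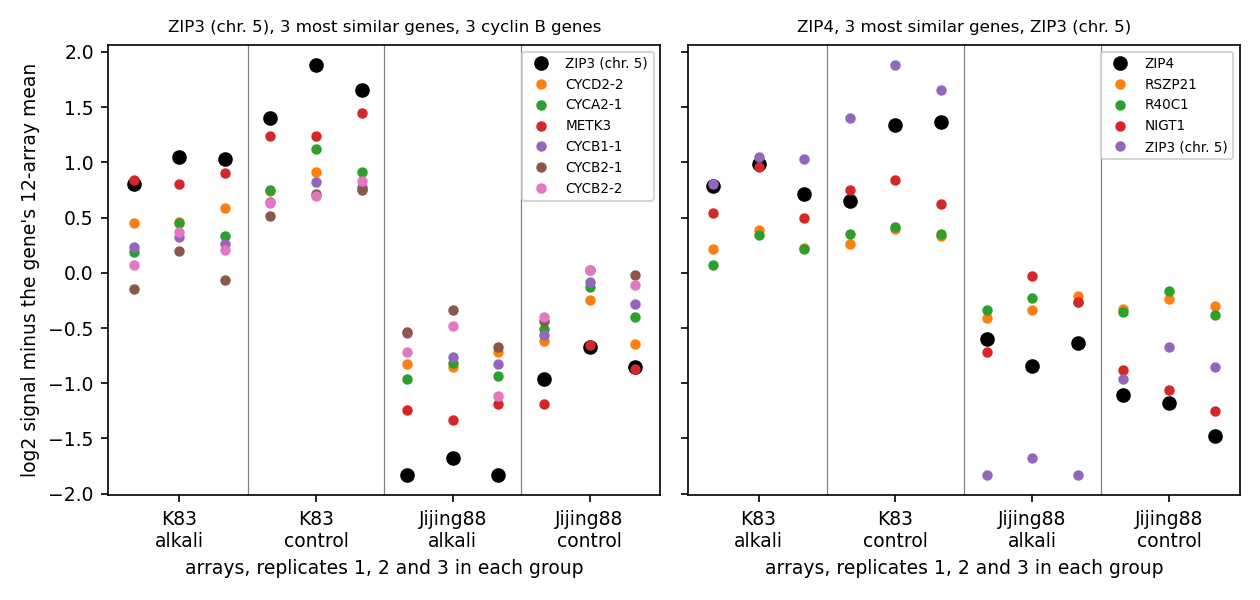
Log2 signal minus each gene's mean over the 12 arrays (vertical axis) in every array, grouped by genotype and medium, for ZIP3 with its 3 most similar genes and 3 cyclin B genes (left) and for ZIP4 with its 3 most similar genes and ZIP3 (right). In Jijing88 the alkali arrays of ZIP3 are below the control arrays, and those of ZIP4 above them.

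Genes next to ZIP3 and ZIP4 on the chromosome did not share the size of their genotype difference. The 3 nearest measured genes on each side were read in the order of the RefSeq gene table (assembly ASM3414082v1, not necessarily that of the array design), a choice made after the values of the 2 genes were seen. Around ZIP3, LOC4338054 was higher in K83 under alkali (0.43, adjusted p = 0.00609) and in control medium (0.55, adjusted p = 0.00118), LOC9268269 was lower in control medium (-0.40, adjusted p = 0.00931), and the 4 others were not called between genotypes, 3 of them with group means of 3.72 or less. Around ZIP4, LOC4344941 was higher in K83 control arrays (1.23, adjusted p = 0.00761), with 0.74 under alkali (adjusted p = 0.0867), and the 5 others had genotype differences of -0.23 to 0.25, none called. Of those 5, LOC4344932 had group means of 3.36 to 3.52, below the array medians, and LOC4344940 had group means of 5.03 to 5.26, close to them. With alkali, 1 of the 6 genes around ZIP3 fell in K83, LOC4338054 (-0.37, adjusted p = 0.0277), and 2 fell in Jijing88, LOC9268269 (-0.74, adjusted p = 0.000224) and the glutaredoxin gene GRXC7 (-0.51, adjusted p = 0.046). None of the 6 genes around ZIP4 was called for alkali in either genotype. Over the whole array, alkali calls made up 2.61% (higher) and 3.85% (lower) in K83, and 4.29% and 4.07% in Jijing88. Calls between genotypes made up 7.05% (higher) and 7.25% (lower) under alkali, and 6.18% and 5.44% in control medium.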

How the data were processed

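The deposited table gives 1 value per probe set and array on a log2 scale; RMA and limma are named, without versions or roles, per the submitters' processing notes, and the log base was read from the values. Of 57381 probe sets 123 controls were left out. No further normalization was applied. The members and the gene lists were chosen with earlier results of these data known.

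All 12 arrays entered a fit of 4 group means in limma 3.58.1 (R 4.3.3; 8 residual degrees of freedom), two-sided, with Benjamini-Hochberg adjustment over 57258 probe sets and calls under 0.05. The code was tested on simulated data. Genes were found by symbol or synonym and read from the probe set with the highest mean. The genes named are all ZIP and regulator genes, of each other list up to 4 called genes per alkali contrast and up to 2 per other contrast by size of change, and those most like ZIP3 and ZIP4. MT1B, YSL7, Nramp5 and MT2A were named after their values were seen. No sequence table was used here, and whether the genotypes differ in sequence under the probes was not tested. Of 18 pairs of arrays with the same replicate number, 7 had deviations correlated above 0.1, mostly pairs of replicate 1 (up to 0.1949). Pairs with different numbers were not read, so this does not settle whether the numbers pair arrays. The main fit held no term for them, and a fit with a replicate block is given below. The number of arrays limits the precision.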

Additional observations from a re-analysis of the deposited data

Results flagged for a closer look

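ZIP4 had alkali arrays on opposite sides of the control mean in the genotypes, all 3 below it in K83 and all 3 above it in Jijing88, with a difference between the alkali effects of -0.85 that was not tested because the gene was chosen with results known. The K83 groups overlapped, with control replicate 1 at 9.25 below all alkali arrays, so no fall beyond their spread is shown in K83. The share of probe sets with such a pattern was not computed. Among the 58 other listed genes the alkali effect differed between genotypes, by limma's test of the difference itself, for IRT2 (2.45, adjusted p = 0.0267) and Nramp1 (2.98, adjusted p = 0.0122). Both rose in K83 (3.95 and 4.88) and, by less, in Jijing88 (1.5 and 1.90). The K83 control mean of IRT2, 4.15, lay below the array medians.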

How the results depend on the processing

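All 188 alternative values of the ZIP3 and ZIP4 differences, from median centring, quantile normalization, a filter on dim probe sets, fits of only the groups compared, a replicate block, array weights, a mean-variance trend and each array left out, kept the sign of the reported value and moved by less than 1 SD. Many of these values could not move. The filter, the fits of only the groups compared, the replicate block and the trend leave a difference of group means unchanged. So does leaving out an array of a group outside the contrast. Values could move only with centring, quantile normalization, array weights or a left-out array of the groups compared. Each gene has 1 probe set, so no other probe set could be read, and the difference of the effects could not be fitted on fewer groups. The alternative fits of the listed genes also held a fit on the median over a gene's probe sets. With the replicate block the listed genes called were 16 for alkali in Jijing88, 15 in K83, 2 for the difference of the effects, 22 between genotypes in control medium and 25 under alkali, beside 14, 12, 2, 21 and 24. The differences of ZIP3 and ZIP4 cannot change with this block, since each group holds each replicate number once. With only the compared groups fitted, the Jijing88 alkali effect had 2768 called probe sets and 7 listed genes, against 4789 and 14. For the difference of the effects, 633 probe sets were called without dim probe sets and 658 with array weights, against 360. When each array was left out, called probe sets ranged from 2666 to 5463 for alkali in Jijing88, from 1721 to 4693 in K83 (3700 with all arrays) and from 107 to 646 for the difference, and listed genes from 5 to 21, 8 to 16 and 1 to 4. The difference had 4 listed genes without Jijing88 control replicate 3 and 1 without Jijing88 alkali replicate 3, K83 control replicate 1 or 3, or K83 alkali replicate 1 or 2. Probe sets called between genotypes stayed within 1.5 times of 6658 in control medium and 8188 under alkali in all of these settings. The cause of these shifts was not tested.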

Other observations

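Of the 4 genes for zinc enzymes, none was called by limma for alkali in either genotype, with differences between -0.20 and 0.61. Under alkali, ADH2, an alcohol dehydrogenase gene, was lower in K83 by -2.15 (adjusted p = 0.00475), with 5.72 in K83 and 7.87 in Jijing88 arrays, and SODCC2, a copper/zinc superoxide dismutase gene, by -0.34 (adjusted p = 0.0126).

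Deviations of single arrays from their group means were most alike between ZIP3 and CYCA2-1 (r = 0.951), OC-VIII (0.941) and OsPBB1 (0.935), and between ZIP4 and HAP3I (0.838), RIBA3 (0.834) and RFC1 (0.787), over the 12 arrays and among 2162 genes. Between ZIP3 and ZIP4 this r was 0.493. These are descriptions only, since all genes read on an array share its hybridization and its RNA pool.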
